A study of Homo sapiens with 6 samples.

Results

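The ISG15 conjugation system is described here as 6 genes taken by symbol, ISG15, UBA7, UBE2L6, HERC5, HERC6 and USP18, out of 58381 genes in the count files. All 6 were matched and all 6 were among the 23160 genes with enough reads to be tested. RNA was sequenced from 786-0, an established human line of clear cell renal carcinoma, and every library, controls included, is labelled SETD2 KO, a knockout of the methyltransferase that trimethylates lysine 36 of histone H3. Cells were dosed once a day for 3 days with the vehicle DMSO, with 100 nM decitabine or with 300 nM decitabine, received new medium on day 4 and were collected on day 5, with 2 libraries per group. Decitabine, a nucleoside drug, is incorporated at cytosine positions of replicating DNA, where it captures DNA methyltransferases. The series title poses whether loss of SETD2 sensitizes kidney cancer cells to agents of this kind. No library with intact SETD2 was analysed here, so the comparisons are of dose within knockout cells, and the labels do not say whether the line is 1 clone. Nor do they say if replicate libraries are from independent cultures, so the replicate scatter behind the p-values could be technical alone.

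ISG15 is a small protein built of a pair of ubiquitin-like folds, and interferon-stimulated cells attach it to lysines of other proteins in a reaction called ISGylation. The chain mirrors that of ubiquitin: UBA7 is the E1 enzyme that activates ISG15, UBE2L6 (also called UbcH8) is the E2 enzyme that carries it, and HERC5 is the main E3 ligase of human cells, bound to ribosomes where it meets newly made proteins. HERC6 is the closest relative of HERC5 and in mouse, which lacks HERC5, is the main ISG15 ligase. USP18 removes ISG15 from proteins and, by a separate activity, binds the interferon receptor subunit IFNAR2 and dampens type I interferon signalling. All of these genes are known interferon-stimulated genes, switched on through the transcription factor complex ISGF3, which binds a promoter motif called the interferon-stimulated response element (ISRE). Interferon signalling is a recorded response of cancer cells to DNA hypomethylating drugs.

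The promoters are shown because the 6 genes moved together at 100 nM while only some of the windows hold the ISRE core. Each is a 300-base window, 250 bases before to 50 after the start, from RefSeq on GRCh38.p14, printed 5′ to 3′ on the strand of the gene, with capitals marking the ISRE core, a pair of GAAA runs set 2 bases apart, or its reverse complement, a pair of TTTC runs set 2 bases apart. The ISG15 window is chr1:1013247-1013546 on the plus strand, HERC5 is chr4:88456869-88457168 on the plus strand and HERC6 is chr4:88378602-88378901 on the plus strand. The RefSeq start of ISG15 lies inside the longer GENCODE gene span given below.
ISG15: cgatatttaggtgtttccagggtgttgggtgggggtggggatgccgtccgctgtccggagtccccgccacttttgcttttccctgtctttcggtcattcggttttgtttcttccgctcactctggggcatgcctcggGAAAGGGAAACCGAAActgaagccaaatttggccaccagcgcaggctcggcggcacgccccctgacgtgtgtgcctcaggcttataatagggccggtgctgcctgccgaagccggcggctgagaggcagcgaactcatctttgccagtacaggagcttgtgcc
HERC5: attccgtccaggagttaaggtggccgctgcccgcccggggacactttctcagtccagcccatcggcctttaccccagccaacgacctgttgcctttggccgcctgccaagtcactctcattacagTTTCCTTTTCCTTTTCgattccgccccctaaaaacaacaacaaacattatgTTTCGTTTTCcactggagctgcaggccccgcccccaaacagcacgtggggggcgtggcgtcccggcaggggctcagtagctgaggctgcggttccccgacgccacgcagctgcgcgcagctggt
HERC6: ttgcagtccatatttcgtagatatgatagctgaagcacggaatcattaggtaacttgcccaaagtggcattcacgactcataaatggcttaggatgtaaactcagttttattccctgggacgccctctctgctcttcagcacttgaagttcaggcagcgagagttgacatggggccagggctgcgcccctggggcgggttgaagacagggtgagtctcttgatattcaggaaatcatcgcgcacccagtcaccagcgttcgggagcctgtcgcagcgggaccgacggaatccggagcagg
The ISG15 window held 2 overlapping cores, starting 113 and 107 bases before the start. The HERC5 window held 3, of which those at 125 and 119 bases before the start overlap and the other lies at 74 bases. The HERC6 window and both UBE2L6 windows (chr11:57567886-57568185 and chr11:57567623-57567922, minus strand) held none, and no promoter sequence of UBA7 or USP18 is shown. The core was present in 3.57% of 35116 RefSeq windows of this length. A second interferon motif, the GAS core (TTC and GAA set 3 bases apart, the same letters on both strands), was in 7.66% of these windows and in none of these 5. CpG dinucleotides, the sites of DNA methylation, numbered 20 in the ISG15 window, 21 in HERC5, 16 in HERC6 and 32 and 41 in the UBE2L6 windows, against a median of 14. A match is a description of the letters, methylation was not measured here, and no match in this window says nothing of sites elsewhere.

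At 100 nM every gene of the chain was higher than with DMSO, from a 2.19-fold rise of HERC5 to a 7.94-fold rise of ISG15. At 300 nM the genes parted: ISG15, UBE2L6 and USP18 stood at 6.60-fold to 11.0-fold the DMSO level, UBA7 and HERC6 stayed raised but below their 100 nM level, and HERC5 did not pass the test against DMSO. Calls rest on a Benjamini-Hochberg adjusted p below 0.05 over all tested genes, from the two-sided quasi-likelihood test of edgeR. By this rule 6 of 6 were higher at 100 nM than with DMSO, where 24% of all tested genes were higher and 18.7% lower (42.7% in all). At 300 nM against DMSO 5 of 6 were higher and 0 lower, where 34.8% of all genes were higher and 31.1% lower (65.9% in all). At 300 nM against 100 nM 2 were higher and 3 lower, where 20% of all genes were higher and 23.4% lower (43.4% in all). The median log2 fold change of the 6 was 2.30 at 100 nM, 2.08 at 300 nM and -0.11 between the doses, against 0.03, 0.05 and -0.04 over all tested genes. The comparisons with DMSO share the same DMSO libraries. With offsets for exon length and GC in each library, 6 of 6 were higher at 300 nM than with DMSO, HERC5 included, with log2 fold changes of 2.64 for ISG15, 2.03 for UBE2L6, 2.56 for USP18 and 0.44 for HERC5, and 0 were higher at 300 nM than at 100 nM.

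**Figure D1:**
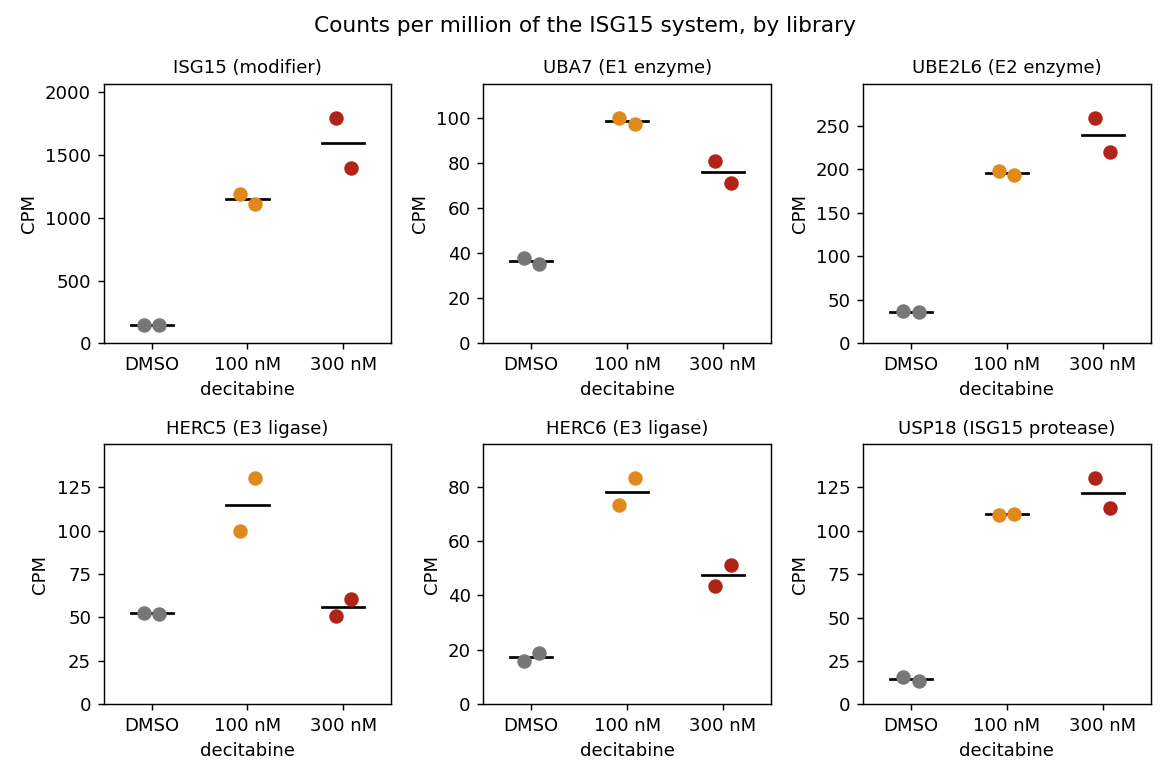
CPM of the 6 genes, 1 panel per gene with its own vertical axis from 0, for DMSO, 100 nM and 300 nM decitabine; points are libraries and lines are means of 2. ISG15, UBE2L6 and USP18 are highest at 300 nM, UBA7, HERC5 and HERC6 are highest at 100 nM, and the HERC5 points at 300 nM lie on either side of the DMSO points.

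The modifier itself, ISG15 (ENSG00000187608.8, GRCh38 chromosome 1, 1001138 to 1014541, plus strand), is given first in CPM, reads per 1000000 after TMM scaling of the library totals. It had 145.7 and 143.5 CPM with DMSO, 1190 and 1106 CPM at 100 nM and 1798 and 1395 CPM at 300 nM. Both doses lay far above DMSO, and the groups did not overlap. The log2 fold change over DMSO was 2.99 at 100 nM (SE 0.12, edgeR adjusted p = 2.6e-12) and 3.46 at 300 nM (SE 0.12, adjusted p = 2.8e-13). Between the doses it was 0.48 (SE 0.11, adjusted p = 0.002). The exons of ISG15 are short, 0.942 kb, and rich in GC, 63.4%, against medians of 4.85 kb and 49.2% over 15386 tested protein-coding genes. After fitting offsets for exon length and GC in each library, the log2 values over DMSO were 2.68 at 100 nM and 2.64 at 300 nM, and the difference between the doses was -0.04 (adjusted p = 0.630). Of its exon bases 3.82% lie under an antisense pseudogene, AL645608.3, that had at most 41 reads in a library, against at least 13494 for ISG15, and the counting did not use strand.

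UBA7, the E1 enzyme (ENSG00000182179.12, chromosome 3, 49805207 to 49813946, minus strand), had 38.07 and 35.41 CPM with DMSO, 100.1 and 97.43 CPM at 100 nM and 80.96 and 70.88 CPM at 300 nM. It rose 2.69-fold at 100 nM (adjusted p = 1.8e-08, edgeR) and 2.07-fold at 300 nM (adjusted p = 3.0e-07). The 300 nM libraries were both below the 100 nM libraries, a log2 difference of -0.38 (SE 0.11, adjusted p = 0.010). Without the first 100 nM library that difference was also -0.38, with an adjusted p of 0.050. With length and GC offsets it was -0.72, and the log2 fold change at 300 nM over DMSO was 0.51.

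UBE2L6, the E2 enzyme (ENSG00000156587.15, chromosome 11, 57551656 to 57568284, minus strand), had 36.75 and 35.83 CPM with DMSO, 197.9 and 193.6 CPM at 100 nM and 259.3 and 219.6 CPM at 300 nM. Against DMSO it rose by log2 values of 2.43 at 100 nM and 2.72 at 300 nM (SE 0.11 each, adjusted p = 1.4e-11 and 2.1e-12, edgeR). With offsets the log2 fold change at 300 nM over DMSO was 2.03. The 300 nM libraries lay above the 100 nM libraries by 0.29 on the log2 scale (SE 0.10, adjusted p = 0.033). This call was lost when any library other than the second of 300 nM was left out (adjusted p from 0.073 to 0.168), and with length and GC offsets the difference was -0.11 (adjusted p = 0.159).

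HERC5, the main human ISG15 ligase (ENSG00000138646.8, chromosome 4, 88457117 to 88506163, plus strand), had 52.75 and 52.04 CPM with DMSO, 99.85 and 130.1 CPM at 100 nM and 50.92 and 60.65 CPM at 300 nM. Only the 100 nM libraries stood apart, and those of 300 nM and DMSO overlapped. The log2 fold change was 1.13 at 100 nM against DMSO (SE 0.13, adjusted p = 2.1e-06, edgeR), 0.09 at 300 nM against DMSO (SE 0.13, adjusted p = 0.556) and -1.04 at 300 nM against 100 nM (SE 0.13, adjusted p = 8.0e-06). HERC5 transcripts are poor in GC, 44.1%. With length and GC offsets the 300 nM libraries were above DMSO by a log2 value of 0.44 (adjusted p = 6.4e-04) and below 100 nM, with a log2 fold change of -0.73 (adjusted p = 2.7e-05).

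HERC6 (ENSG00000138642.14, chromosome 4, 88378739 to 88443111, plus strand) lies next to HERC5. It had 15.85 and 19.01 CPM with DMSO, 73.18 and 83.11 CPM at 100 nM and 43.64 and 51.12 CPM at 300 nM. The groups did not overlap. It rose 4.48-fold at 100 nM (adjusted p = 7.7e-10, edgeR) and 2.72-fold at 300 nM (adjusted p = 4.1e-08), and the 300 nM level was 0.607 times that at 100 nM (log2 fold change -0.72, SE 0.13, adjusted p = 2.3e-04). With offsets that log2 difference was -0.55 (adjusted p = 1.9e-04).

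USP18, the protease that removes ISG15 (ENSG00000184979.9, chromosome 22, 18149899 to 18177397, plus strand), had 15.78 and 13.16 CPM with DMSO, 109.3 and 109.9 CPM at 100 nM and 130.3 and 113.2 CPM at 300 nM. Over DMSO it rose by log2 values of 2.92 at 100 nM and 3.07 at 300 nM (SE 0.13 each, adjusted p = 6.1e-12 and 2.1e-12, edgeR). Between the doses it was 0.15 (SE 0.12, adjusted p = 0.313), which does not show that the doses give the same level. USP41, a near-identical copy of USP18 on the same chromosome, averaged 0.084 ± 0.028 CPM with DMSO, 0.66 ± 0.14 CPM at 100 nM and 0.957 ± 0.0988 CPM at 300 nM (SD, n = 2 each), so reads shared by the copies cannot be placed with certainty.

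**Figure D2:**
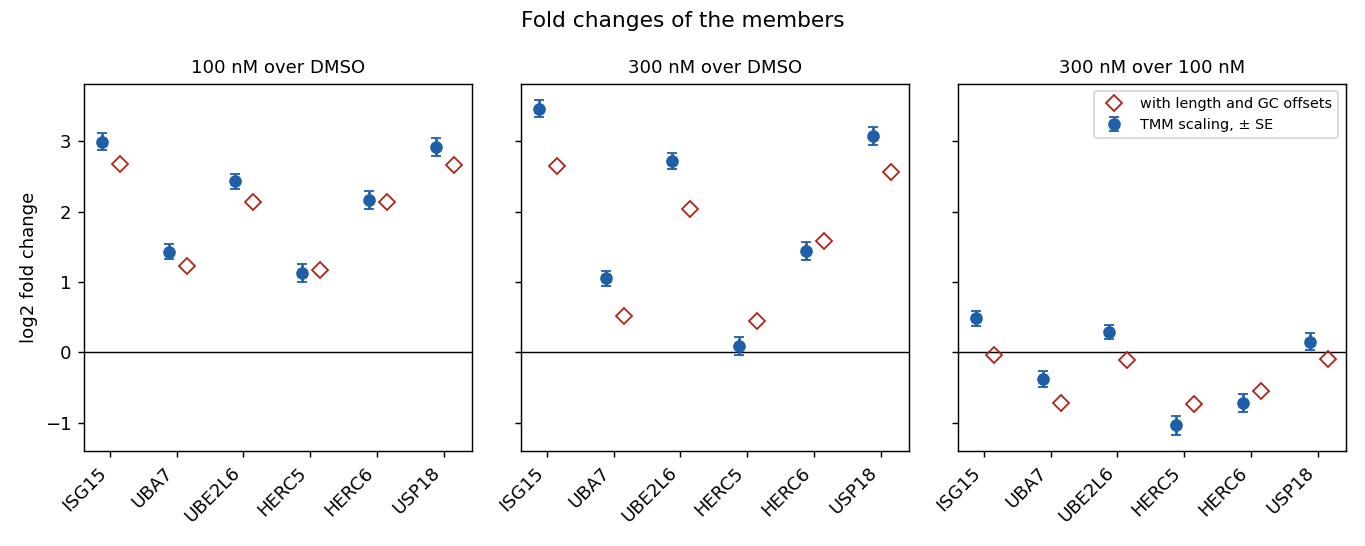
Log2 fold change of each gene in the 3 comparisons, as filled points with SE from the edgeR fit scaled by TMM and as open diamonds after offsets for exon length and GC. Every filled point against DMSO lies above 0; in the right panel the diamonds of ISG15, UBE2L6 and USP18 lie at -0.04, -0.11 and -0.09.

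Levels of different genes were compared per exon length, as TPM (reads per base of exon, scaled to 1000000 over all genes). ISG15 was the most abundant of the 6 in all 6 libraries, with mean TPM of 591 with DMSO, 4503 at 100 nM and 5424 at 300 nM, ranks 186, 15 and 13 among the 15386 tested protein-coding genes. UBE2L6 came next at 63.6 TPM with DMSO, 329.3 at 100 nM and 349.4 at 300 nM. With DMSO the order below it was HERC5 (42.3 TPM), UBA7 (31.1 TPM), USP18 (26.2 TPM) and HERC6 (11.6 TPM), where the TPM of UBA7 and USP18 in single libraries, 29.9 to 32.4 and 23.7 to 28.7, came close but did not overlap. At 300 nM USP18 had 183.4 TPM, UBA7 53.6, HERC5 37.8 and HERC6 26.4. USP18 thus moved from the second lowest place with DMSO to the third highest at both doses (190.3 TPM at 100 nM). At 100 nM HERC5, with 76.3 and 102.4 TPM in its 2 libraries, lay on either side of UBA7, with 80.3 and 80.4 TPM.

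The proportions within the chain changed with dose. ISG15 made up 77.0% and 77.4% of the summed TPM of the 6 genes with DMSO, then 86.5% and 85.3% with 100 nM and 89.9% and 88.6% with 300 nM. Per TPM of HERC5 and HERC6 together the DMSO libraries held 11.2 and 10.7 TPM of ISG15, those of 100 nM 37.6 and 28.2 and those of 300 nM 104.8 and 68.7. TPM of UBE2L6 per TPM of UBA7 was 2.00 and 2.09 in the DMSO libraries, 4.09 and 4.11 in those of 100 nM and 6.63 and 6.41 in those of 300 nM. The ratio of HERC5 to HERC6 was 4.04 and 3.33 in the DMSO libraries, 1.66 and 1.90 in those of 100 nM and 1.42 and 1.44 in those of 300 nM. By contrast ISG15 per USP18 was 20.9 and 24.7 in the DMSO libraries, 24.6 and 22.8 in those of 100 nM and 31.2 and 27.9 in those of 300 nM, so DMSO and 100 nM overlapped. These ratios carry no test, and those of short, GC-rich ISG15 to other genes move with the length and GC dependence given above.

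**Figure D3:**
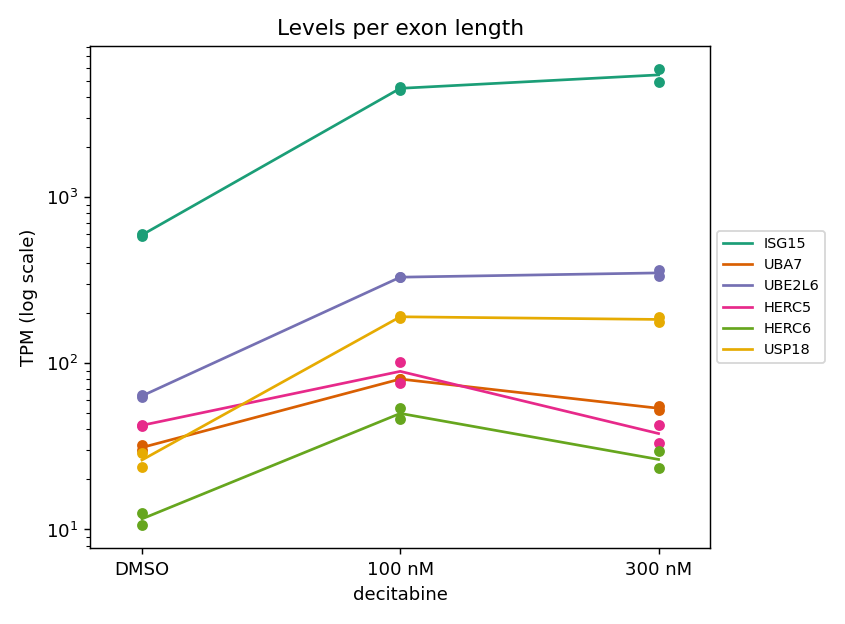
TPM of the 6 genes by group on a log axis; points are libraries and lines join group means of 2. ISG15 runs above the others throughout, USP18 crosses UBA7 and HERC5 between DMSO and 100 nM, and HERC5, HERC6 and UBA7 are lower at 300 nM than at 100 nM.

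Of the 6 profiles, those of ISG15 and USP18 were the most alike, with a root mean square difference of 0.189 in log2 CPM centred on each gene's mean over the 6 libraries. UBE2L6 lay 0.219 from USP18 and 0.316 from ISG15. UBA7 was nearest to HERC6 (0.348), HERC5 was nearest to UBA7 (0.438), and ISG15 and HERC5 were the farthest apart (1.396). By the same measure over the 12426 protein-coding genes whose mean reached 1 CPM, the nearest outside genes were CCL5 (0.046), a chemokine, SPEG (0.079) and NMB (0.083) for ISG15. For UBE2L6 they were OASL (0.031), an interferon-induced relative of the 2-5A synthetases, ULK2 (0.060) and MELTF (0.062). For USP18 they were CARD14 (0.065), LY6E (0.094) and IFI35 (0.120). The nearest to UBA7 were SLC2A14 (0.039), SLCO2B1 (0.062) and NID2 (0.075). HERC5 had CCDC122 (0.078), SP100 (0.081) and IFIT2 (0.095), the last an interferon-induced RNA-binding protein, and HERC6 had GBP1 (0.077), an interferon-induced GTPase, C3AR1 (0.082) and CXCL5 (0.101). The mean profile of the 6 lay nearest to APCDD1L (0.071), CDH13 (0.090) and SP110 (0.101). These distances rest on 6 libraries that share their dose groups and carry no test. They use TMM scaling alone, without length and GC offsets. With offsets the log2 fold changes at 300 nM over DMSO were 1.42 for CCDC122, 1.20 for SP100 and 0.65 for IFIT2, against 0.44 for HERC5. For CARD14, LY6E and IFI35 they were 3.04, 2.39 and 2.26, against 2.56 for USP18.

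The neighbouring genes along the chromosomes did not all move with the 6. HES4, 0.966 kb from ISG15, rose by log2 values of 0.79 at 100 nM and 1.51 at 300 nM, while AGRN on its other side fell, with log2 fold changes of -0.40 and -0.56 (edgeR adjusted p = 0.002 and 3.6e-05). INKA1, 0.177 kb from UBA7, rose by 1.31 and 1.96, and SMTNL1, 1.38 kb from UBE2L6, by 3.54 and 2.46. Both INKA1 and SMTNL1 started from under 1 CPM with DMSO. With offsets the 300 nM values over DMSO were 0.84 for HES4, -0.64 for AGRN, 1.14 for INKA1 and 1.75 for SMTNL1. Between them HERC6 and HERC5 are flanked by PPM1K, 94 kb away, with log2 fold changes of 0.39 at 100 nM and -0.40 at 300 nM (adjusted p = 0.028 and 0.016), and by PYURF, 14.8 kb away, which passed the test at neither dose (0.02 and -0.29, adjusted p = 0.912 and 0.059). Beside USP18, TUBA8 averaged 0.168 CPM with DMSO, 0.383 CPM at 100 nM and 0.294 CPM at 300 nM, and neither it nor GGTLC3, 339 kb away on the other side, passed the test at either dose. TRAIP, 14.7 kb from UBA7, had log2 fold changes of -0.02 at 100 nM (adjusted p = 0.900) and 0.35 at 300 nM (adjusted p = 0.021), a call lost without either DMSO library or the first 300 nM library. SERPING1, 29.1 kb from UBE2L6 and with 0 and 2 reads with DMSO, had 4 and 8 reads at 100 nM and 24 and 26 at 300 nM. The PPM1K call at 100 nM was lost without either DMSO library or the second 100 nM library, that at 300 nM was lost without the second DMSO or the first 300 nM library, and with offsets its 300 nM value was 0.96. The AGRN call at 100 nM was lost without the first DMSO or the first 100 nM library.

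Outside the 6, other ligases and partners of the system changed in part. Beside the counts of this and the following lists stand the shares over all tested genes, 24% higher and 18.7% lower at 100 nM. At 300 nM these shares were 34.8% and 31.1%. Of 9 listed genes 5 were higher and 2 lower at 100 nM, and 5 were higher and 3 lower at 300 nM, with median log2 fold changes of 1.24 and 0.72. TRIM21, a ubiquitin ligase and cytosolic antibody receptor, had 19.1 and 19.5 CPM with DMSO, 76.4 and 72.1 CPM at 100 nM and 109.5 and 92.5 CPM at 300 nM. On the log2 scale it rose by 1.95 at 100 nM and 2.39 at 300 nM. TRIM25 of the same list had log2 fold changes over DMSO of 1.29 at 100 nM and 1.35 at 300 nM, with offsets 1.21 and 1.23. Those of ARIH1 were -0.04 and -0.81, which with offsets were 0.71 and 0.98. The chains of the integrin LFA-1, reported as the surface receptor for free ISG15, were also higher: ITGB2 by 1.55 and 2.87 (adjusted p = 2.0e-06 and 3.9e-10, edgeR), and ITGAL, at 0.0416 and 0 CPM with DMSO, reached 0.326 and 0.411 CPM at 100 nM. IFNAR2, to which USP18 binds, had 1.07 to 1.56 CPM in all libraries and passed the test in no comparison, and 83.2% of its exon bases lie under other genes, whose reads the counting leaves unassigned. LRRK2, a protein kinase, had log2 fold changes of -0.61 at 100 nM and -2.65 at 300 nM, which with offsets were 0.04 and -0.92. Without the second DMSO library 0 of the list were lower at 100 nM, and without the first 100 nM library, or without TMM factors, 1 was. The ITGAL call at 300 nM was lost without the second DMSO library. With offsets 1 was lower at each dose and 6 were higher.

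Of 14 listed genes of the type I interferon pathway, from its receptor to ISGF3 and feedback inhibitors, 8 were higher and 0 lower at 100 nM, and 9 higher and 2 lower at 300 nM (median log2 fold changes 0.73 and 0.66). IRF7, the factor that amplifies interferon production, had 11.2 and 10.4 CPM with DMSO, 108.6 and 109.5 CPM at 100 nM and 174.4 and 140.9 CPM at 300 nM. It had the highest fold change of the list at both doses, log2 3.33 and 3.86, followed by SOCS1, a feedback inhibitor of JAK kinases, at 2.61 and 3.28, and IRF1 at 1.46 and 1.62. With offsets the 300 nM values of IRF7 and SOCS1 were 3.17 and 2.56. IRF9, a subunit of ISGF3, passed the test in no comparison (1.49 to 2.46 CPM), and 48.4% of its exon bases lie under other genes. The receptor subunit IFNAR1 had a log2 fold change of 0.14 at 100 nM (adjusted p = 0.371) and fell at 300 nM by 0.50 against DMSO, a fall that offsets turn to 0.28.

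Reported substrates of ISGylation were higher in most cases at 100 nM. Of 25 listed genes 14 were higher and 1 lower at 100 nM, and 14 higher and 5 lower at 300 nM (medians 0.59 and 0.48). Several of them are themselves interferon-stimulated genes, such as MX1, an antiviral GTPase with 10.9 and 10.9 CPM with DMSO, 280.3 and 273.2 CPM at 100 nM and 467 and 393.1 CPM at 300 nM. The RNA sensor gene IFIH1 (MDA5) had 32.0 and 32.0 CPM with DMSO, 127.7 and 150.5 CPM at 100 nM and 50.7 and 62.0 CPM at 300 nM. DDX58 (RIG-I), the other cytosolic sensor of the list, had 14.4 and 16.4 CPM with DMSO, 49.7 and 73 CPM at 100 nM and 13.3 and 18.4 CPM at 300 nM, a pattern like that of HERC5. The 300 nM level of DDX58 was below that at 100 nM by a log2 fold change of -1.95, that of IFIT3 by -1.39 and that of IFIH1 by -1.30 (adjusted p = 3.3e-07, 3.1e-07 and 4.5e-07). With offsets that of DDX58 was -1.30, and its log2 fold change at 300 nM against DMSO was 0.93, against 0.04 without them. TP63, at 0 to 0.0208 CPM with DMSO and 0.061 to 0.338 CPM with decitabine, was near the floor of detection, and its call at 100 nM was lost in 9 of 15 alternatives. With offsets 20 of the 25 were higher and 2 lower at 300 nM, and 2 were lower at 100 nM.

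The remaining HERC genes did not follow HERC5 and HERC6. HERC1 and HERC2 are the giant ligases of the family, while HERC3 and HERC4 are of the small class that also holds HERC5 and HERC6. Of these 4 genes 0 were higher and 3 lower at 100 nM and 0 higher and 4 lower at 300 nM. Lower calls made up 18.7% and 31.1% of all tested genes at these doses. HERC1 had 55.9 and 55.4 CPM with DMSO, 35.04 and 39.89 CPM at 100 nM and 14.7 and 16.6 CPM at 300 nM. HERC4 had log2 fold changes of -0.54 and -1.48, and HERC2 of -0.60 and -0.88. With offsets HERC1 was at -1.19 at 300 nM, HERC4 turned to 0.15 and 0.29, and 1 of the 4 was higher and 2 lower at 300 nM.

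Apart from USP41, the other proteases reported to act on ISG15 were not raised as USP18 was. Of 8 listed, 1 was higher and 5 lower at 100 nM, and 2 higher and 4 lower at 300 nM (medians -0.42 and -0.49). The shares over all genes were 24% higher and 18.7% lower at 100 nM, and 34.8% and 31.1% at 300 nM. The higher gene at both doses was USP41, the copy of USP18, with log2 fold changes of 2.96 and 3.49. Reads shared by USP41 and USP18 cannot be placed with certainty. USP24 had 139.9 and 149.1 CPM with DMSO, 76.5 and 88.2 CPM at 100 nM and 30 and 38.1 CPM at 300 nM, and USP16 fell by a log2 value of 2.16 at 300 nM. With offsets the log2 fold changes at 300 nM were -1.13 for USP24 and -0.60 for USP16, and 2 of the list were higher at 100 nM. Without the first 100 nM or the second DMSO library 3 were lower at 100 nM, and without any 1 library other than the second of 300 nM 1 was higher at 300 nM.

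The E1 and E2 enzymes and the modifiers of parallel pathways moved in both directions at 300 nM. So did the tested genes as a whole, with 34.8% higher and 31.1% lower, against 24% and 18.7% at 100 nM. Of 9 other E1 genes 0 were higher and 5 lower at 100 nM, and 4 were higher and 5 lower at 300 nM (medians -0.36 and -0.68). UBA6, the second E1 of ubiquitin, had a log2 fold change of -2.41 at 300 nM, and NAE1 and UBA3, which together activate NEDD8, of -2.32 and -1.74. With offsets these values were -0.47, -1.38 and -0.70. Without the first 100 nM or the second DMSO library 2 were lower at 100 nM, and without TMM factors 3 were. Without either 300 nM library 1 was higher at 100 nM, and with offsets 2 were higher and 3 lower at that dose. Of 15 other E2 genes 2 were higher and 0 lower at 100 nM, and 5 higher and 4 lower at 300 nM. By these counts the 300 nM calls lie near the shares over all genes, and those at 100 nM lie below them. UBE2L3, the closest relative of UBE2L6, had 123.1 and 134.3 CPM with DMSO, 118.1 and 110.4 CPM at 100 nM and 124.4 and 117.7 CPM at 300 nM, and passed the test in no comparison (adjusted p = 0.193, 0.461 and 0.545). UBE2Z, the E2 of UBA6, rose by log2 values of 0.69 and 1.03, the largest of the list under TMM scaling, while with offsets UBE2D3, at 0.73 and 1.54, was above it at both doses. The E2 counts move with the settings: leaving out 1 library gave 1 to 5 higher at 100 nM and 3 to 5 higher and 1 to 4 lower at 300 nM, and offsets gave 8 higher at 100 nM and 10 at 300 nM.

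Of 13 tested modifiers other than ISG15, 6 were higher and 0 lower at 100 nM, and 8 higher and 3 lower at 300 nM (medians 0.22 and 0.71). All tested genes had shares of 24% higher and 18.7% lower at 100 nM, and 34.8% and 31.1% at 300 nM. The rises were small beside that of ISG15: SUMO3 by 0.51 and 1.09, UBL5 by 0.47 and 1.06 and NEDD8 by 0.44 and 0.71 on the log2 scale. UBD (FAT10), another interferon-induced modifier of paired ubiquitin-like folds, had 1 read over all 6 libraries and was not tested, and 76.9% of its exon bases lie under other genes. Without the first 100 nM library 3 were higher at 100 nM, without the second DMSO library 1 was, and without either 300 nM library 2 were lower at 100 nM.

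**Figure D4:**
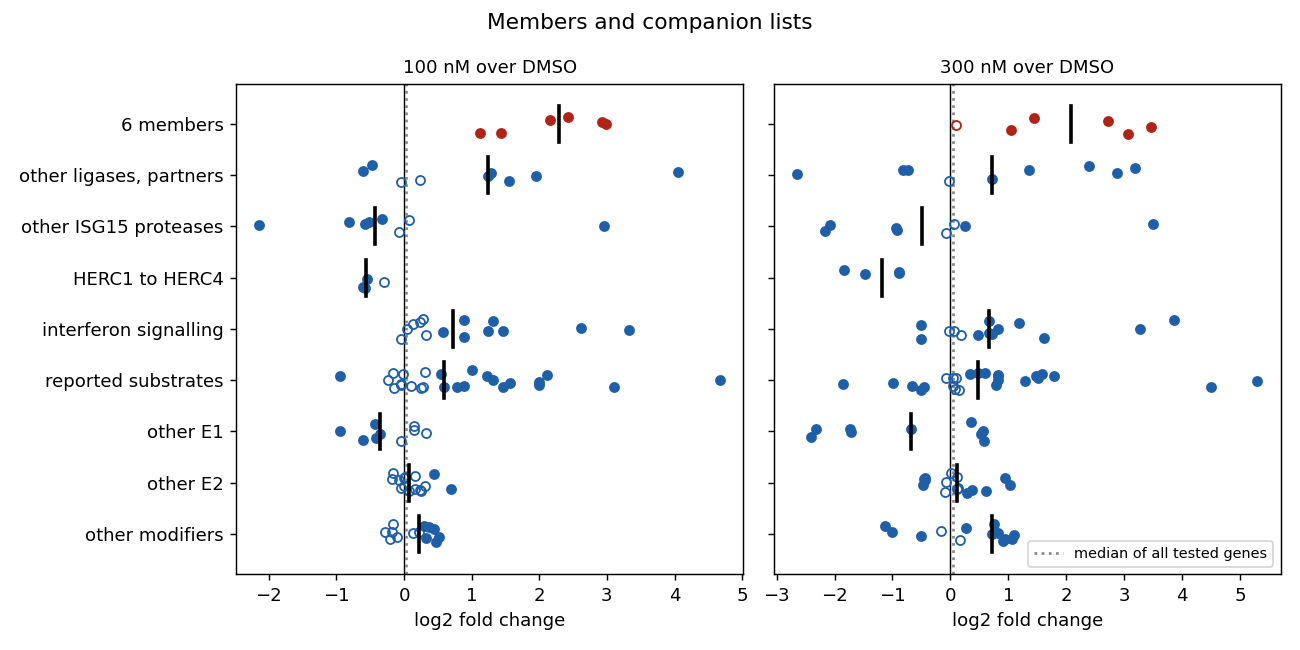
Log2 fold change over DMSO of the 6 genes (red, top row) and of the listed genes of related function (blue), at 100 nM and 300 nM; filled points have an adjusted p under 0.05, vertical bars are medians of the row and the dotted line is the median of all tested genes. The 6 genes span 1.13 to 2.99 at 100 nM and 0.09 to 3.46 at 300 nM, and HERC1 to HERC4 lie below 0 at both.

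The libraries held 89159112 to 96646427 reads assigned to genes, and the scatter between the 2 libraries of a group was above counting error. SETD2 was still transcribed and lower with dose, at 77.9 and 81.3 CPM with DMSO, 39.8 and 49.1 CPM at 100 nM and 16.4 and 21.7 CPM at 300 nM, levels that cannot check the genotype. Its log2 fold changes over DMSO were -0.84 at 100 nM and -2.06 at 300 nM, which with offsets were -0.51 and -1.09. Of 10 renal line markers PAX8, VIM, KRT8 and KRT18 were present in all libraries, while CA9, a hypoxia-induced marker of clear cell tumours, had 0 reads with DMSO and LRP2 had at most 4 reads in a library. The summed CPM of the renal list was 3318 to 3368 with DMSO, 3328 to 3542 at 100 nM and 4620 to 5551 at 300 nM. Of 11 blood and immune markers, 6 were at 0 with DMSO and 8 stayed under 1 CPM in every library. PTPRC (CD45) had at most 10 reads in a library, and MS4A1 and the plasmacytoid dendritic cell markers CLEC4C and IL3RA had 0 in all. A count of 0, as for IL3RA, can also come from reads that match several places and go uncounted, which was not tested. The list summed to 0.718 to 0.723 CPM with DMSO, 5.04 to 5.80 CPM at 100 nM and 7.52 to 8.87 CPM at 300 nM, and with decitabine most of it was TYROBP. Summed CPM of 5 fibroblast markers, nearly all COL1A1, was 18.2 to 19.6 with DMSO, 869.3 to 897.8 at 100 nM and 955.3 to 1043 at 300 nM, and that of 4 endothelial markers was 0.936 to 1.33, 1.45 to 1.72 and 3.15 to 3.46 in the same order. Their part in the changes of the 6 genes was not tested. In bulk RNA, fewer cells with a transcript and less of it per cell cannot be told apart.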

How the data were processed

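Poly-A RNA libraries were aligned with STAR and counted with featureCounts, per the submitters' processing notes (featureCounts 1.5.0-p3, per the file headers). The deposited values are whole-number counts per gene on GENCODE 28, and the authors also deposited a matrix of log2 values that its name gives as VSN, a variance-stabilising normalization, with settings not given in the sources used here. The headers record no paired-end and no strand option, and of the counts between 1 and 10, 70.0% to 74.4% per library were even. The notes name hg19 and GRCh37, but all 56933 genes with the same versioned identifier in GENCODE 29 had the same GRCh38 coordinates, so positions are GRCh38. Gene names came from GENCODE 29 for 58261 genes.

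Counts were filtered with filterByExpr, scaled by TMM and tested two-sided with edgeR 4.0.16 (R 4.3.3), by its quasi-likelihood method in a joint fit of the 3 groups that leaves 3 residual degrees of freedom. P-values were adjusted by Benjamini-Hochberg over 23160 genes. The other fits used limma 3.58.1 and DESeq2 1.42.0. SE is the log2 fold change divided by the root of the F statistic. Assigned reads per library were 93342879 and 92793965 (DMSO), 95271726 and 89159112 (100 nM) and 90475363 and 96646427 (300 nM), and the biological coefficient of variation was 11.8%. Length and GC offsets were splines with 5 degrees of freedom per library on exon length and on GC of the longest transcript. TPM used the exon lengths of the count files. Named genes are the 6, up to 3 called genes of each list and comparison with the largest change, the nearest tested coding gene on each side, the 3 nearest profiles per gene and SETD2; UBE2L3, TRIM21 at 300 nM, IFNAR2, IFNAR1, IRF9, HERC2, UBD and other listed genes outside this rule were named after their values were seen. Genes and lists were chosen with earlier results of these data known. Alternatives were other scalings, no filter, DESeq2, limma on the deposited matrix, fits of only the compared groups, halved counts, offsets, a replicate block and leaving out each library. Results for some listed genes are not reported here.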

Additional observations from a re-analysis of the deposited data

How the results depend on the processing

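The 6 genes kept their direction and call against DMSO at 100 nM in all 15 alternatives, with log2 fold changes of 2.68 to 3.04 for ISG15, 1.23 to 1.48 for UBA7, 2.14 to 2.45 for UBE2L6, 0.93 to 1.33 for HERC5, 2.04 to 2.3 for HERC6 and 2.66 to 3.06 for USP18. At 300 nM the 5 genes other than HERC5 kept theirs in all 15. HERC5 at 300 nM against DMSO was -0.01 without TMM factors, 0.44 with length and GC offsets, where it passed the test, and -0.04 to 0.21 when 1 library was left out. At 300 nM against 100 nM, HERC5 and HERC6 kept their direction and call in all 15, and the number of genes higher was 1 without TMM factors, 1 in a fit of only those groups, 0 with offsets and 1 to 2 when 1 library was left out. Offsets turned the log2 difference between the doses to -0.04 for ISG15, -0.11 for UBE2L6 and -0.09 for USP18. Without TMM factors the share of calls at 300 nM against 100 nM that were higher was 35.2%, against 46% with them (3360 higher and 6181 lower), and the median of all genes was -0.16, against -0.04. Among the other named genes, offsets turned ARIH1 to 0.27, HERC4 to 0.14, UBE2D1 to 0.63, UBE2N to 0.20 and UFM1 to 0.23 between the doses, HERC4 to 0.15 and PYURF to -0.14 at 100 nM, and HERC4 to 0.29, TRAIP to -0.17 and PPM1K to 0.96 at 300 nM against DMSO. PYURF at 100 nM was -0.02 with RLE size factors, DESeq2 and the deposited matrix, and -0.01 to 0.07 when 1 library was left out, and TRAIP -0.04 to 0.01. Of 720 recomputed counts over the lists, 638 were within 1.5 times the reported count. Why these values moved was not tested. 

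Labels number the libraries 1 and 2 in each group, and the deviations of same-numbered libraries correlated at 0.163 (100 nM and DMSO), 0.174 (300 nM and DMSO) and 0.394 (both doses) over 14002 genes. The labels do not say that a number marks a shared batch or day, and 2 numbers are too few to settle it, so a shared batch or day of same-numbered libraries was not tested. With the replicate block the calls over all genes were 11319 against 9895 at 100 nM, 15865 against 15263 at 300 nM and 11343 against 10054 between the doses, and the 6 genes had the same counts of calls (6 and 0, 5 and 0, 2 and 3 higher and lower).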
